A study of Homo sapiens with 6 samples.

Results

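The genes described here encode heat shock proteins (HSPs), their co-chaperones and the 2 main heat shock transcription factors, 41 genes listed by symbol, most of whose products work in the cytosol. HSPA9, HSPD1 and HSPE1 belong to mitochondria and HSPA13 to the microsomal compartment, so that the list reaches beyond the cytosol. Each gene was taken as the row that carries its symbol in the deposited gene table, and 40 of the 41 had a row among the 74852 genes listed. CRYAB, a small HSP, was not analysed here. The cells were MDA-MB-231, a human triple-negative breast cancer (TNBC) line, transfected 2 times with a pool of non-targeting control siRNAs (si-CTRL) or a pool of siRNAs against the mitotic kinase NEK2 (si-NEK2). RNA was taken 24 h after the second transfection per the sample labels, while the published methods give another time, counted from transfection, and libraries of polyA RNA were made from 3 samples per group. Nothing states whether the 3 samples were separate cultures, so that p-values measure the spread between these samples. Both groups met the transfection reagent and siRNAs, no untransfected cells were analysed here, and 1 pool per group cannot part the loss of NEK2 from other effects of its siRNAs.

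Chaperones bind unfolded segments of other proteins and help them to fold or pass them on for degradation. HSP70 proteins act in cycles of ATP hydrolysis that J-domain proteins start and that BAG proteins and HSP110 proteins turn over by nucleotide exchange. HSP90 matures kinases and steroid receptors with a set of co-chaperones, and the ring-shaped TRiC/CCT complex folds actin and tubulin. Under proteotoxic stress the transcription factor HSF1 binds heat shock elements, inverted repeats of GAA, and raises the transcription of many of these genes. Cancer cells often carry high levels of them.

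Each value is a normalized count, reads per gene over the size factor that DESeq2 gave the library. The reads could be recovered as whole numbers and came to between 52625492 and 87454509 per library, where 1 read was worth between 0.8183 and 1.2498 normalized counts. The sums of the normalized counts differed between the groups, from 65012672.3 to 65933373.8 in si-CTRL and from 71439026.6 to 71995295.4 in si-NEK2 libraries, so that scaling bears on small differences. NEK2, the silenced gene, fell from 3438 ± 229 to 344.9 ± 54.4 normalized counts (SD, n = 3), a log2 fold change (log2 FC) of -3.32 (adjusted p = 1.86e-06, limma). Of the markers chosen for the line, VIM, CD44, AXL and KRT18 had means of at least 24560 in both groups, and ESR1, PGR, CDH1 and EPCAM of at most 8.216. Among markers of other cells, PTPRC and PECAM1 had at most 13.73 and PDGFRB at most 753.5. COL1A1, a fibroblast marker, was high, at 160257 ± 18683 in si-CTRL and 141499 ± 10668 in si-NEK2 (SD, n = 3). CD68 shares a row with EIF4A1 and checks nothing.

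si-CTRL replicate 1 stood apart from the other si-CTRL libraries. It was the farthest from the other 2 for 32 of the 40 chaperone genes, the highest of the 3 for 25 and the lowest for 11. Results that turn on it are given with and without it.

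The promoters of several of these genes carry the letters of heat shock elements, and the sites are shown because genes that rose, genes that fell and genes that did not pass the test all hold them. The 300 bases from 250 before to 50 after each start site (RefSeq, GRCh38.p14) were at hand for 36 of the 40 genes, as 49 promoters. They were searched on both strands for GAANNTTC and TTCNNGAA, each of which is its own reverse complement, and for these runs extended by a further 3-letter unit to 13 letters, which contain both shorter runs. Either run of 8 letters was in 20 of the 49 promoters (40.8%) and in 13.5% of all 35116 promoters. The extended run was in 7 of the 49 (14.3%) and in 0.49% of all promoters. In the lines that follow, capitals mark the matched letters, and each sequence reads 5′ to 3′ on the strand of its gene.
HSPA1A (chr6:31815426-31815455, plus strand): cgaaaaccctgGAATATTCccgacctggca
HSPA1B (chr6:31827622-31827651, plus strand): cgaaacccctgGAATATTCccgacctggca
HSPB8 (chr12:119178832-119178861, plus strand): tcatcacctccGAATATTCctgtgacagga
DNAJB1 (chr19:14518426-14518455, minus strand): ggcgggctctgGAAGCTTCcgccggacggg
DNAJB6 (chr7:157336865-157336893, plus strand): agagccgaGAACCTTCGCGAAggtggggc
HSP90AA1 (chr14:102087112-102087140, minus strand): gagggttcTTCCGGAAGGTTCgggaggct
HSP90AB1, first site (chr6:44247770-44247798, plus strand): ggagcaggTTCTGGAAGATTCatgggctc
HSP90AB1, second site (chr6:44247823-44247851, plus strand): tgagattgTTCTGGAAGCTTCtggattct
HSPA8, first site (chr11:123062346-123062374, minus strand): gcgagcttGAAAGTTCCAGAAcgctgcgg
HSPA8, second site (chr11:123062171-123062199, minus strand): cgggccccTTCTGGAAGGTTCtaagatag
CHORDC1 (chr11:90223084-90223112, minus strand): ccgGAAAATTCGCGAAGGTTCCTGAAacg
BAG2 (chr6:57172191-57172220, plus strand): tcgaccgatagGAACCTTCgcgtgggggga

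The matched letters of HSPA1A lie from 106 to 99 bases and those of HSPA1B from 105 to 98 bases before the start, in windows of 30 bases that differ by A6C, counted from the first base shown. Those of the second HSPA8 site lie from 55 to 43 bases before its start, and those of HSP90AA1 from 88 to 76. The windows of HSPB8, HSP90AA1, CHORDC1, BAG2 and the second HSPA8 site lie wholly in bases annotated as exon (GENCODE v29 basic). They therefore need not lie before every start in use. Not every match is shown, and DNAJB1, HSP90AA1 and CHORDC1 have further ones before the start. CHORDC1 has the longest run, with alternating units over 23 bases. Of the 20 genes with a promoter at hand that rose, 11 held a run of 8 letters, against 2 of the 3 that fell (HSPA8 and BAG2) and 6 of the 13 that did not pass the test. These matches are a description of letters, and binding was not measured.

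The chaperone genes were compared between si-NEK2 and si-CTRL cells with limma on log2(normalized count + 1), fitted to the 18717 genes whose normalized counts averaged 10 or more. All 40 passed this filter, with means between 1139 and 278114. A gene is said to have risen or fallen where p, adjusted over all tested genes after Benjamini-Hochberg, did not exceed 0.05. Of the 40, 21 rose (52.5%), 4 fell (10%) and 15 did not pass. Over all tested genes 21.8% rose and 21.3% fell. The split moved with the scaling, to 16 that rose and 6 that fell with all libraries at 1 total, and to 16 and 7 with quantile normalization. Abundant genes passed more often, and among the 7995 genes that averaged 1000 normalized counts or more 35.5% rose and 18.8% fell. The median log2 fold change was 0.24 for the chaperone genes, 0.01 for all tested genes and 0.12 for the abundant ones. The groups did not overlap for 30 of the 40 genes (75%), against 55% of all tested genes.

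By the thresholds that define regulated genes, an unadjusted p not above 0.05 and a change of 1.5-fold or more, 8 of the 40 were higher (20%) and 2 were lower (5%). Over all tested genes 8.23% were regulated higher and 14.3% lower, and over the abundant genes 7.92% and 7.32%. The 8 were HSPA2, HSPA1B, HSPB8, DNAJB4, HSPA1A, HSPA4, HSPH1 and HSP90AA1, and the 2 were BAG2 and STUB1. With all libraries rescaled to 1 total, the median over all tested genes was -0.11, and 5 chaperone genes were then regulated higher and 3 lower. Over all genes this scaling took the regulated genes from 1541 higher and 2672 lower to 942 higher and 3474 lower.

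**Figure D1:**
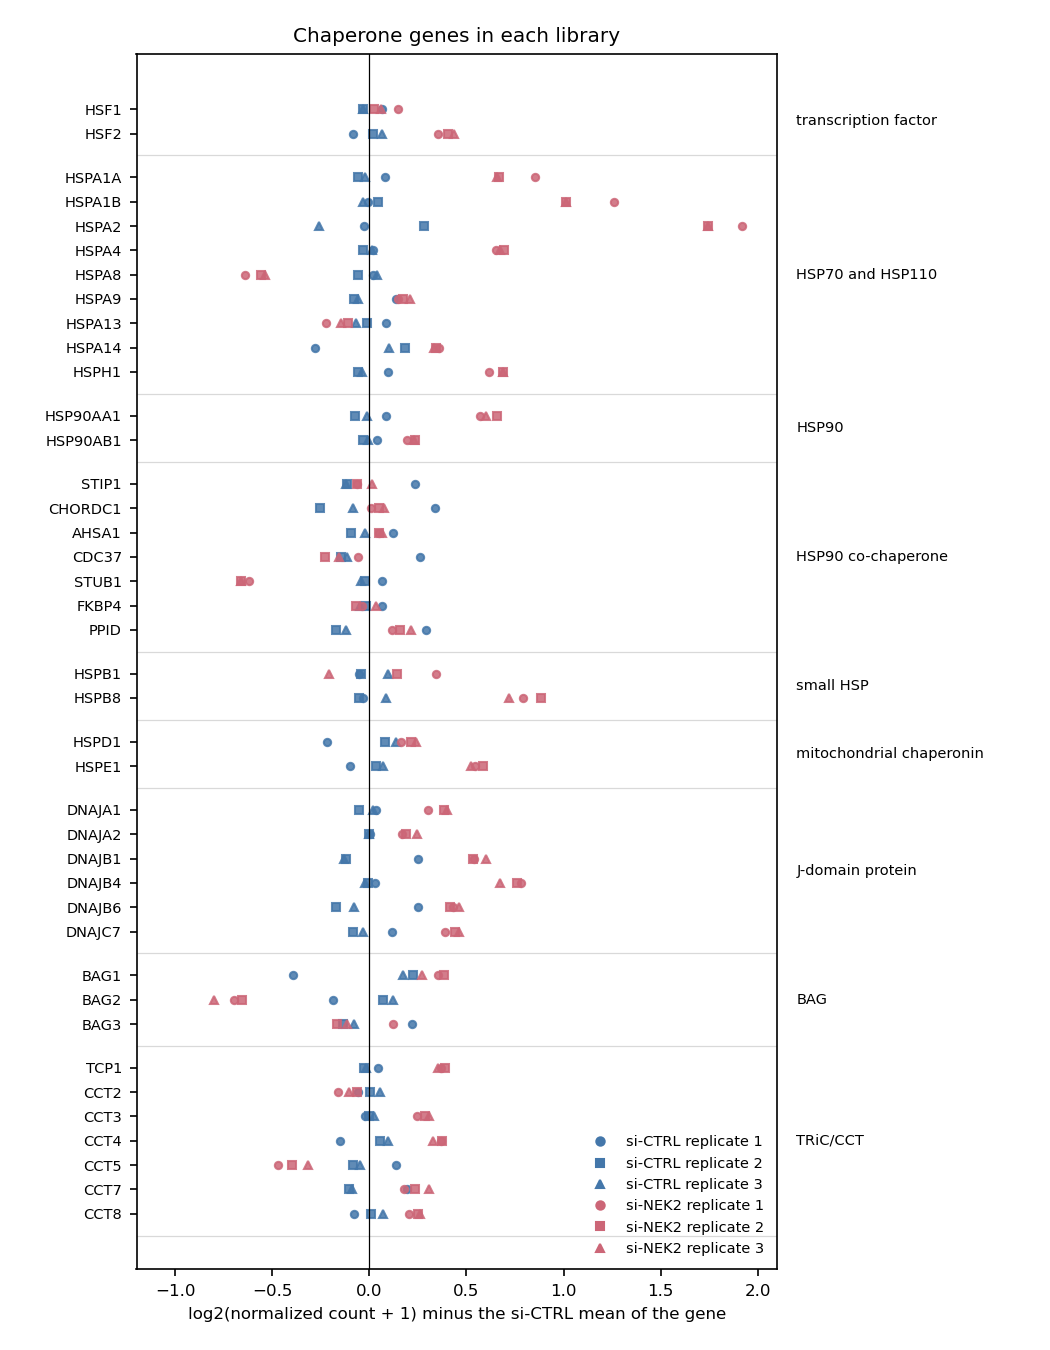
Level of each of the 40 chaperone genes in each library, as log2(normalized count + 1) minus the si-CTRL mean of the gene, ordered by role. Blue points are the 3 si-CTRL and red points the 3 si-NEK2 libraries. HSPA2 and HSPA1B lie farthest to the right, HSPA8, STUB1, BAG2 and CCT5 lie to the left, and most HSP90 co-chaperones overlap between the groups.

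**Figure D2:**
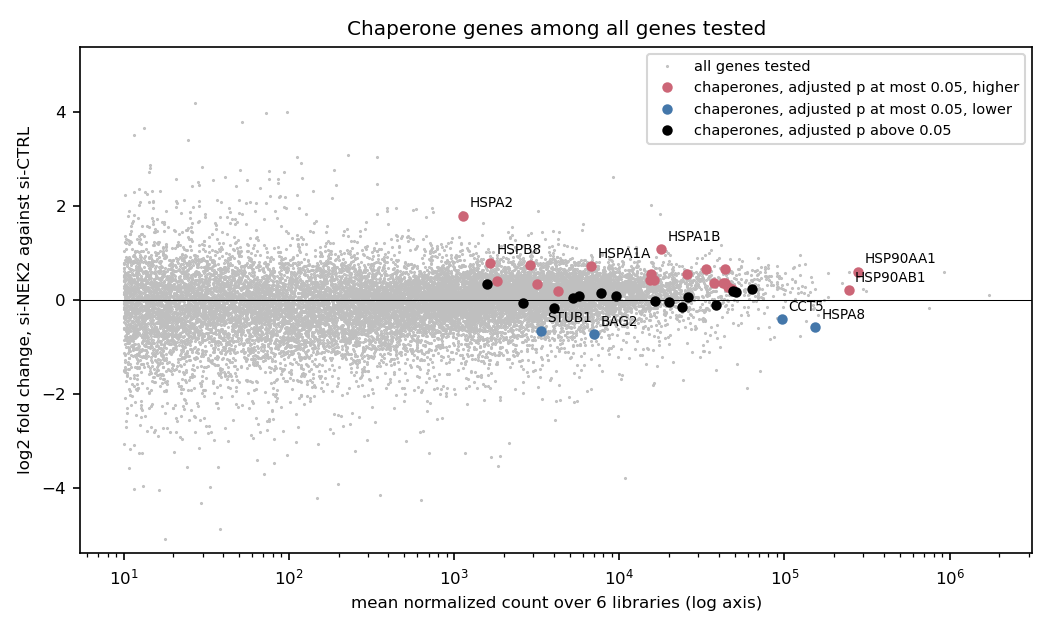
Log2 fold change of si-NEK2 against si-CTRL cells by the mean normalized count over the 6 libraries (log axis), with all 18717 tested genes in grey and the 40 chaperone genes as large points coloured by the outcome of the test. The chaperone genes lie between -0.72 (BAG2) and 1.80 (HSPA2), and HSP90AA1, HSP90AB1 and HSPA8 are among the most abundant genes.

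The heat shock transcription factors were examined first. HSF1, the main activator of the stress response, had 5758, 5393 and 5393 normalized counts in the si-CTRL libraries and 6102, 5608 and 5746 in the si-NEK2 libraries. The groups overlapped, and its log2 FC of 0.08 (standard error, SE, 0.07, adjusted p = 0.375) did not pass. The sign of this small value turned with equal total scaling (-0.05). HSF2, which pairs with HSF1 and acts in development and differentiation, had 1476, 1585 and 1632 in si-CTRL and 1998, 2068 and 2113 in si-NEK2 libraries. Every si-NEK2 library lay above every si-CTRL library, and HSF2 rose by a log2 FC of 0.40 (SE 0.07, adjusted p = 0.00245), under a fold change of 1.5.

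HSPA1A and HSPA1B, a pair of stress-inducible HSP70 genes, rose. HSPA1A and HSPA1B lie on chromosome 6 (31783291 to 31785722 and 31795512 to 31798031, hg19) and encode nearly the same protein, so that reads may be split between them unevenly. HSPA1A had 5389, 4892 and 5015 normalized counts in si-CTRL and 9191, 8082 and 8028 in si-NEK2 libraries, a log2 FC of 0.72 (SE 0.08, adjusted p = 0.000151). HSPA1B had 11381, 11790 and 11167 in si-CTRL and 27384, 23072 and 23054 in si-NEK2 libraries. Its log2 FC was 1.09 (SE 0.08, adjusted p = 2.56e-05). In both genes si-NEK2 replicate 1 was the highest library and the groups were far apart. The sum of the 2 genes, which does not depend on how reads were split between them, went from 16545 ± 317 to 32937 ± 3151 (SD, n = 3), 1.991 times the si-CTRL level.

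HSPA2, an HSP70 gene known for its part in spermatogenesis and found in many tumours, had the largest log2 FC of the chaperone genes. It had 496.2, 615.0 and 422.1 normalized counts in si-CTRL and 1911, 1694 and 1696 in si-NEK2 libraries. The lowest si-NEK2 library stood well above the highest si-CTRL library. The mean rose 3.457-fold, with a log2 FC of 1.80 (SE 0.13, adjusted p = 2.82e-05), and the log2 FC lay between 1.67 and 1.94 over all alternatives.

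HSPA8, the constitutive HSP70 of the cytosol (HSC70), fell. HSPA8 (chromosome 11 from 122928197 to 122949370, hg19) had 186896, 176949 and 189592 normalized counts in si-CTRL and 118410, 125420 and 127104 in si-NEK2 libraries. All si-NEK2 libraries lay far below all si-CTRL libraries. Its mean went to 67.02% of the si-CTRL level, a log2 FC of -0.58 (SE 0.07, adjusted p = 0.000215). This lies just short of a 1.5-fold change, and HSPA8 passed that threshold in edgeR and DESeq2 (-0.59 in both), with equal total (-0.71) or upper quartile scaling (-0.64), with quantile normalization (-0.73), and without si-CTRL replicate 2 (-0.61), si-NEK2 replicate 2 (-0.59) or si-NEK2 replicate 3 (-0.60). The row of CLMP overlaps the coordinates of HSPA8 with a mean of 1287 normalized counts, and processed pseudogenes of HSPA8 may share its reads.

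The make-up of a chosen set of 4 cytosolic HSP70 genes differed between the groups. HSPA14, HSPA6 and HSPA1L were not part of this set. HSPA8 took 91.5 ± 0.43% of the reads of HSPA8, HSPA1A, HSPA1B and HSPA2 in si-CTRL cells and 78.1 ± 2.3% in si-NEK2 cells (SD, n = 3). The share of HSPA1B went from 5.69 ± 0.34% to 15.5 ± 1.7%, that of HSPA1A from 2.53 ± 0.1% to 5.33 ± 0.46% and that of HSPA2 from 0.255 ± 0.057% to 1.12 ± 0.088% (SD, n = 3). The sum of the 4 genes was lower in si-NEK2 cells, 158349 ± 1495 normalized counts against 201535 ± 6394 (SD, n = 3), since HSPA8 lost more reads than the other 3 gained. The log2 ratio of HSPA1A to HSPA8 was -5.12, -5.18 and -5.24 in si-CTRL and -3.69, -3.96 and -3.98 in si-NEK2 libraries. The difference of 1.30 had a two-sided exact permutation p of 0.1 (0.1 after adjustment over 3 pairs), the smallest that 3 against 3 libraries allow. In bulk RNA, fewer cells with a transcript and less transcript per cell cannot be told apart, here and in every other comparison.

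**Figure D3:**
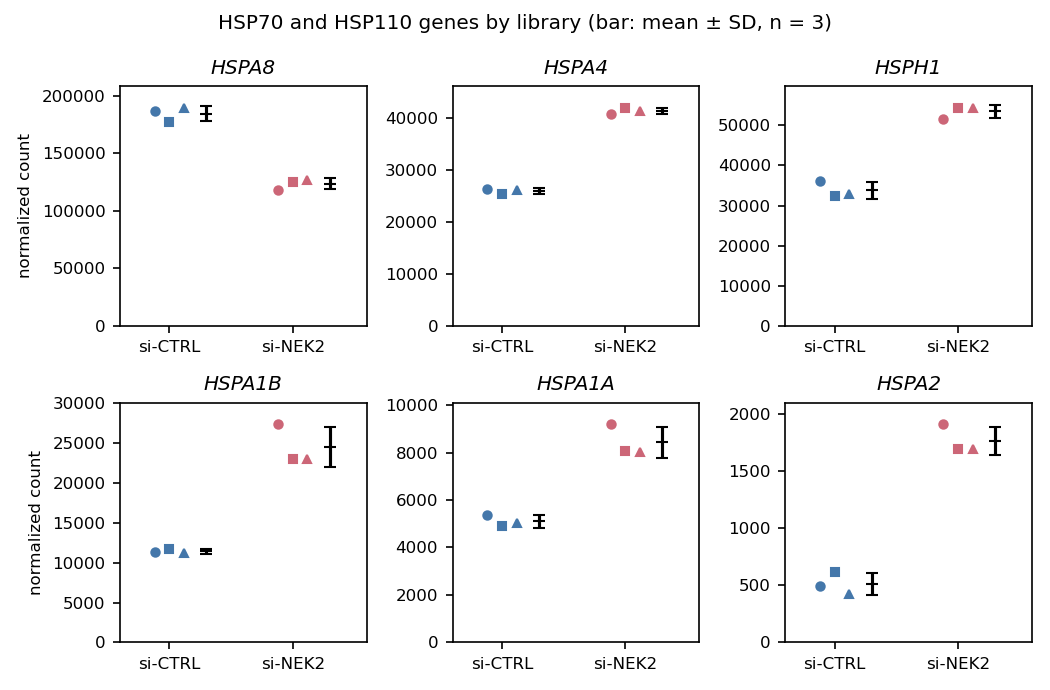
Normalized counts of 6 HSP70 and HSP110 genes in each library, with the mean ± SD (n = 3) beside the points and each axis starting at 0. HSPA8 is lower and the other 5 genes are higher in all 3 si-NEK2 libraries than in any si-CTRL library.

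**Figure D4:**
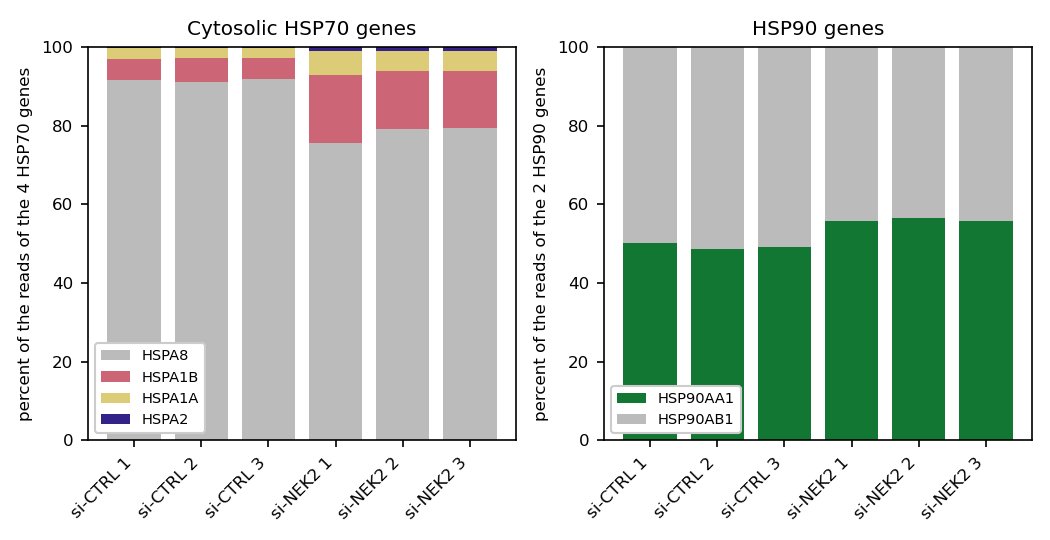
Share of each gene in the reads of 4 cytosolic HSP70 genes (left) and of the 2 HSP90 genes (right), in percent, for each library. HSPA8 gives 91.5% of the HSP70 reads in si-CTRL and 78.1% in si-NEK2 cells on average, and HSP90AA1 goes from 49.3% to 56% of the HSP90 reads.

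HSPA4 and HSPH1 are HSP110 genes, whose products exchange nucleotides on HSP70 and hold unfolded proteins, and both rose. A further HSP110 gene, HSPA4L, did not pass (0.02, adjusted p = 0.869). HSPA4 (APG-2) had 26366, 25384 and 26225 normalized counts in si-CTRL and 40789, 41991 and 41381 in si-NEK2 libraries, a log2 FC of 0.67 (SE 0.06, adjusted p = 4.85e-05). HSPH1 (HSP105) had 36051, 32310 and 32885 in si-CTRL and 51619, 54345 and 54342 in si-NEK2 libraries, a log2 FC of 0.66 (SE 0.07, adjusted p = 0.000111). In both genes the replicates lay close together and the groups far apart.

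Of the remaining HSP70 genes, HSPA14, whose product sits on the ribosome, rose by a log2 FC of 0.34 (adjusted p = 0.037), or 0.20 without si-CTRL replicate 1 (adjusted p = 0.00912). The call was lost without any single si-NEK2 library (adjusted p between 0.0816 and 0.101). It was also lost with other scalings (adjusted p between 0.0881 and 0.166), in edgeR (adjusted p = 0.053) and with the replicate number as a block (adjusted p = 0.0516). HSPA9 (mortalin), the HSP70 of mitochondria, did not pass at 0.18 (adjusted p = 0.0786), but rose without si-CTRL replicate 1 (0.25, adjusted p = 0.00115). HSPA13, a microsomal ATPase, did not pass at -0.16 (adjusted p = 0.095), but fell with 3 other scalings (adjusted p between 0.00967 and 0.0257). Thus 6 of the 9 listed HSP70 and HSP110 genes rose (66.7%), 1 fell (11.1%) and 2 did not pass. Over all tested genes 21.8% rose and 21.3% fell, and over the abundant genes 35.5% and 18.8%. Of related genes outside the list, HSPA6 (-0.56, adjusted p = 0.00229) and HSPA12A (-0.52, adjusted p = 0.0049) fell. HSPA1L, HSPA4L, HSPA5 and HYOU1 did not pass.

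Both cytosolic HSP90 genes rose, by amounts that depended on the scaling. Outside the 41 genes, HSP90B1 (GRP94), the HSP90 of the endoplasmic reticulum, fell from 177036 ± 12466 to 142289 ± 6867 normalized counts (SD, n = 3; -0.31, adjusted p = 0.00994), and TRAP1, that of mitochondria, did not pass (0.06, adjusted p = 0.669). HSP90AA1, the more inducible form, had 233499, 209268 and 218148 normalized counts in si-CTRL and 326643, 347332 and 333794 in si-NEK2 libraries. The si-NEK2 libraries all lay above the si-CTRL libraries, and HSP90AA1 rose 1.525-fold (log2 FC of 0.61, SE 0.07, adjusted p = 0.000242). Its log2 FC was 0.54 with upper quartile scaling, 0.48 with equal total scaling and 0.23 with quantile normalization (adjusted p = 0.0193), and 0.57 without si-CTRL replicate 2, all short of a 1.5-fold change. HSP90AB1, the constitutive form, had 232883, 221149 and 225266 in si-CTRL and 258615, 266648 and 265304 in si-NEK2 libraries. It rose by a log2 FC of 0.22 (SE 0.06, adjusted p = 0.021), a call that did not hold throughout. With equal total scaling HSP90AB1 had 0.09 (adjusted p = 0.276), and quantile normalization turned it to -0.21 (adjusted p = 0.0318). Leaving out any library other than si-CTRL replicate 1 gave adjusted p-values between 0.0529 and 0.0978, and the replicate block 0.0741.

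Their ratio does not depend on scaling by a common factor per library, while quantile normalization, which uses no such factor, can move it. The log2 ratio of HSP90AA1 to HSP90AB1 was 0.00, -0.08 and -0.05 in si-CTRL and 0.34, 0.38 and 0.33 in si-NEK2 libraries. The groups did not overlap, and the difference of 0.39 had an exact permutation p of 0.1 (two-sided, the smallest possible). HSP90AA1 went from 49.3 ± 0.73% to 56 ± 0.47% of the reads of both genes (SD, n = 3). Together they took 0.681 ± 0.025% of all reads in si-CTRL and 0.836 ± 0.018% in si-NEK2 cells.

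Most of the listed co-chaperones of HSP90 did not pass the test. Of 7 genes, none rose, STUB1 fell (14.3%) and 6 did not pass, while over all tested genes 21.8% rose and 21.3% fell. Outside the list some did pass, such as SUGT1, which rose (0.68), and PPP5C (-0.67) and FKBP5 (-0.50, adjusted p = 0.00486), which fell. PTGES3 did not (0.11, adjusted p = 0.497). STIP1 (HOP), which links HSP70 to HSP90, had a log2 FC of -0.04, and AHSA1, which stimulates the ATPase of HSP90, of 0.06. CDC37, which brings kinases to HSP90, had -0.15, the immunophilins FKBP4 (FKBP52) and PPID (cyclophilin 40) had -0.02 and 0.16, and CHORDC1 had 0.04. Their adjusted p-values lay between 0.29 (PPID) and 0.812 (CHORDC1), and in all 6 the groups overlapped. In each of these 6 genes si-CTRL replicate 1 was the highest of all 6 libraries. PPID had 8901 there against 6471 and 6694 in the other si-CTRL libraries and 7890, 8111 and 8439 in si-NEK2 libraries. Without this library PPID (0.31, adjusted p = 0.000672), CHORDC1 (0.21, adjusted p = 0.0153) and AHSA1 (0.12, adjusted p = 0.0483) rose, and CDC37 had -0.02 (adjusted p = 0.816).

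STUB1 (CHIP), the ubiquitin ligase that sends clients of HSP70 and HSP90 to the proteasome, had 4268, 4004 and 3955 normalized counts in si-CTRL and 2653, 2575 and 2571 in si-NEK2 libraries. Its replicates lay close together, and it fell to 63.79% of the si-CTRL level (log2 FC of -0.65, SE 0.06, adjusted p = 0.000115). JMJD8, with a mean of 1709 normalized counts, overlaps STUB1 over 1102 bases, and the handling of strand is not given in the sources used here.

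All 6 listed J-domain genes rose, and in each of them the groups did not overlap. Over all tested genes 21.8% rose, and the groups did not overlap for 55%. Of the abundant genes, to which all 6 belong, 35.5% rose. Outside the list J-domain genes did not move together. Most of those tested did not pass, and of the rest more rose than fell. For example, DNAJB14 rose (0.56, adjusted p = 0.00345), DNAJC6 fell (-1.41, adjusted p = 7.19e-05) and DNAJA3 did not pass (0.06, adjusted p = 0.642). DNAJB4 had 2193, 2144 and 2123 normalized counts in si-CTRL and 3705, 3647 and 3438 in si-NEK2 libraries, a log2 FC of 0.74 (SE 0.07, adjusted p = 6.37e-05). DNAJB1 (HSP40), the partner of inducible HSP70, had 15004, 11629 and 11525 in si-CTRL and 18341, 18284 and 19122 in si-NEK2 libraries. Its log2 FC was 0.56 (SE 0.10, adjusted p = 0.00239), and 0.68 without si-CTRL replicate 1, past a fold change of 1.5. DNAJB6, which keeps polyglutamine and other aggregating proteins soluble, rose by 0.44 (adjusted p = 0.00841). DNAJC7, which binds both HSP70 and HSP90, rose by 0.43 (adjusted p = 0.00128) and DNAJA1 by 0.36 (adjusted p = 0.00162). The coordinates of DNAJC7 are overlapped by NKIRAS2 (mean of 5664 normalized counts, 678 bases) and by a row without a symbol (mean of 4235, 1316 bases). DNAJA2 rose least, by 0.20 (adjusted p = 0.0254), and lost its call without any library other than si-CTRL replicate 1, with the block (adjusted p = 0.0741) and with equal total scaling (0.07, adjusted p = 0.374). Quantile normalization brought DNAJB6 to 0.29 and DNAJA1 to 0.22, with adjusted p-values of 0.0421 and 0.0246.

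Of the 3 BAG genes, nucleotide exchange factors of HSP70, 1 fell (33.3%) and 2 did not pass. Over all tested genes 21.3% fell, and over the abundant genes 18.8%, so that this count tells nothing particular to the BAG genes. BAG2, which also inhibits STUB1, had 7683, 9198 and 9520 normalized counts in si-CTRL and 5408, 5551 and 5021 in si-NEK2 libraries. All si-NEK2 libraries were below all si-CTRL libraries, and it fell to 60.53% of the si-CTRL level (log2 FC of -0.72, SE 0.09, adjusted p = 0.000363). BAG3, an HSF1 target that directs clients to autophagy, had 3076, 2404 and 2501 in si-CTRL and 2876, 2359 and 2444 in si-NEK2 libraries. The groups overlapped, and its log2 FC of -0.05 (adjusted p = 0.74) did not pass. BAG1 had 0.34 (adjusted p = 0.105) with 1059 in si-CTRL replicate 1 and 1626 and 1570 in the other si-CTRL libraries. Without that library it had 0.14 (adjusted p = 0.0969).

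Of the 2 listed small HSPs with a row, which hold unfolded proteins without ATP, HSPB8 rose and HSPB1 did not pass. HSPB8, which works with BAG3, had 1179, 1165 and 1284 normalized counts in si-CTRL and 2090, 2227 and 1991 in si-NEK2 libraries. The groups were well apart, and HSPB8 rose 1.739-fold (log2 FC of 0.80, SE 0.08, adjusted p = 0.000108). HSPB1 (HSP27) had 8915, 8979 and 9867 in si-CTRL and 11718, 10185 and 7992 in si-NEK2 libraries. The si-NEK2 libraries spread to both sides of the si-CTRL libraries, and its log2 FC of 0.09 (adjusted p = 0.597) did not pass and turned to -0.03 without si-NEK2 replicate 1.

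HSPD1 (HSP60) and HSPE1 (HSP10) form the chaperonin of mitochondria and lie head to head on chromosome 2. Each shares its row with other genes, HSPD1 with 2 small nucleolar RNAs in its introns and HSPE1 with MOB4, so that the value of HSPE1 is uncertain. The HSPE1 row had 19357, 21234 and 21816 normalized counts in si-CTRL and 30341, 31214 and 29835 in si-NEK2 libraries, and it rose by a log2 FC of 0.55 (SE 0.07, adjusted p = 0.000277). HSPD1 had 39040, 47986 and 49922 in si-CTRL and 50730, 52727 and 53514 in si-NEK2 libraries. Its groups did not overlap, but its log2 FC of 0.20 (adjusted p = 0.11) did not pass. It was 0.10 without si-CTRL replicate 1, the lowest library, and 0.08 with equal total scaling. The log2 ratio of HSPD1 to HSPE1 went from 1.13 ± 0.10 to 0.78 ± 0.05 (SD, n = 3), a difference of -0.35 with a two-sided exact permutation p of 0.1, again the smallest possible.

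The subunits of TRiC/CCT, which stand in equal numbers in each ring, did not move together. CCT5 was the most abundant subunit by reads, and it fell. CCT5 (chromosome 5 from 10250033 to 10266523, hg19) had 120220, 103268 and 105759 normalized counts in si-CTRL and 79110, 83068 and 87816 in si-NEK2 libraries, a log2 FC of -0.40 (SE 0.08, adjusted p = 0.00382). TCP1 had 38036, 36117 and 36449 in si-CTRL and 47556, 48269 and 47078 in si-NEK2 libraries, and it rose by 0.37 (SE 0.06, adjusted p = 0.00104). In both genes the groups were apart, in opposite directions. ACAT2, with a mean of 5814 normalized counts, overlaps TCP1 over 614 bases.

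CCT4 (0.36, adjusted p = 0.00536), CCT3 (0.28, adjusted p = 0.00433) and CCT8 (0.24, adjusted p = 0.0146) also rose. CCT8 lost its call without si-NEK2 replicate 2 (adjusted p = 0.0681) or si-NEK2 replicate 3 (adjusted p = 0.0611). CCT3 and CCT8 also lost theirs with equal total scaling (adjusted p of 0.0614 and 0.194) and quantile normalization (0.269 and 0.858). CCT7 (0.24, adjusted p = 0.0584) and CCT2 (-0.11, adjusted p = 0.184) did not pass. Without si-CTRL replicate 1 both did, CCT7 at 0.34 (adjusted p = 0.000391) and CCT2 at -0.14 (adjusted p = 0.0319). CCT2 also fell with upper quartile scaling (-0.18, adjusted p = 0.0454), equal total scaling (-0.24, adjusted p = 0.013) and quantile normalization (-0.25, adjusted p = 0.0088). Quantile normalization brought CCT4 to 0.19, TCP1 to 0.20 and CCT5 to -0.63, with adjusted p-values of 0.0479, 0.0276 and 0.000161. CCT6A, the subunit outside the list, rose by 0.31 (adjusted p = 0.00693). Of the reads of all 8 subunits, CCT5 took 27.8 ± 1.7% in si-CTRL and 19.8 ± 0.62% in si-NEK2 cells, while TCP1 went from 9.34 ± 0.1% to 11.3 ± 0.32% (SD, n = 3). The sum over the 8 subunits was 394737 ± 9496 and 419924 ± 9772 normalized counts (SD, n = 3).

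**Figure D5:**
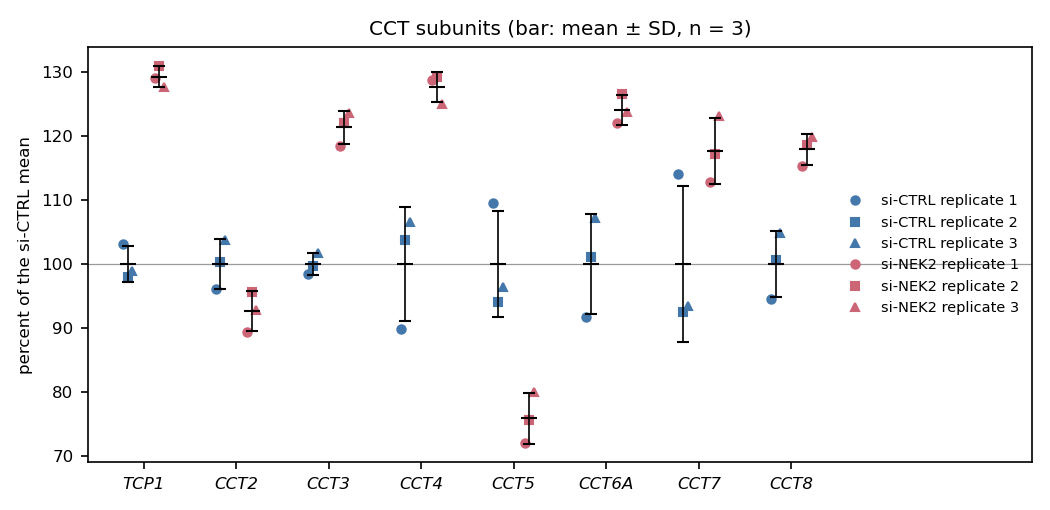
Normalized counts of the 8 CCT subunits in each library, as percent of the si-CTRL mean of the gene, with mean ± SD (n = 3). The si-NEK2 mean is 75.93% of the si-CTRL mean for CCT5 and 92.63% for CCT2, and the other 6 subunits have si-NEK2 means above their si-CTRL means.

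Other chaperone genes were read from a list of 78 further genes, of which 71 passed the filter on low values. Of these, 19 rose (26.8%), 9 fell (12.7%) and 43 did not pass, with a median log2 FC of 0.11, beside 21.8% and 21.3% of all tested genes, whose median was 0.01, and 35.5% and 18.8% of the abundant ones, whose median was 0.12. By the thresholds for regulated genes 2 were higher (2.82%) and 3 were lower (4.23%). Over all tested genes these shares were 8.23% and 14.3%, and over the abundant genes 7.92% and 7.32%. PDCL, a phosducin-like partner of CCT, rose from 4373 ± 454 to 7373 ± 315 normalized counts (SD, n = 3; log2 FC of 0.76, adjusted p = 0.000219). SUGT1, a co-chaperone of HSP90 at kinetochores, rose from 3182 ± 281 to 5082 ± 42 (0.68, adjusted p = 0.000226). The 3 regulated lower were DNAJC6 (auxilin), which recruits HSPA8 to clathrin coats (-1.41, adjusted p = 7.19e-05), DNAJC10, a reductase of the endoplasmic reticulum (-1.07, adjusted p = 1.6e-05), and PPP5C, a phosphatase bound to HSP90 (-0.67, adjusted p = 0.000588). In all 5 the groups did not overlap, which says little of genes chosen by p and fold change. Over all tested genes the groups did not overlap for 55%. HSPA5 (BiP), the HSP70 of the endoplasmic reticulum, had -0.02 (adjusted p = 0.854).

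Genes known as targets of heat shock factors were listed separately, 25 genes of which 17 are also among the 41. Of the 24 tested, 11 rose (45.8%), 2 fell (8.33%) and 11 did not pass, with a median log2 FC of 0.15, to be read against the same shares of all and of abundant genes. The 2 that fell were HSPA8 and HSPA6. HSPA6, an HSP70 gene that is nearly silent without strong stress, had 367.5, 363.2 and 386.9 normalized counts in si-CTRL and 257, 237.7 and 262.5 in si-NEK2 libraries (log2 FC of -0.56, adjusted p = 0.00229). Among the 8 targets outside the 41, CACYBP (0.54), ZFAND2A (0.45) and UBB (0.23) rose, and the adjusted p-values of these 3 lay between 0.000256 and 0.0127. UBB lost its call with equal total scaling and with quantile normalization (0.03, adjusted p = 0.704), and without si-NEK2 replicate 2 or 3 (adjusted p of up to 0.0614). HSPA1L (-0.24), HSPA4L (0.02), SERPINH1 (0.01) and MRPL18 (-0.05) did not pass. Within the list the log2 FC lay between -0.58 (HSPA8) and 1.09 (HSPA1B), and BAG3, at -0.05, did not pass. HSPA6, HSPA5, HSP90B1, TRAP1 and HSPA4L were chosen for mention after their values had been seen. The same holds for HSPA12A, HYOU1, DNAJB14, DNAJA3, FKBP5 and PTGES3.

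Levels were compared between genes per 1000 bases of exon (GENCODE v29 basic, all exons of a gene merged), since the normalized counts grow with length. In si-CTRL cells HSP90AB1 had the highest level at 75984 ± 1998 normalized counts per kb, followed by HSPA8 at 68351 ± 2467 and HSP90AA1 at 54707 ± 3044 (SD, n = 3). In si-NEK2 cells the order of the last 2 was reversed, with HSP90AA1 at 83418 ± 2609 and HSPA8 at 45811 ± 1708, and HSP90AB1 stayed first at 88430 ± 1444. CCT7 and CCT5 followed in si-CTRL cells, at 28787 ± 3496 and 27219 ± 2270, and did not differ beyond their spread. HSPA1B had 4540 ± 125.5 and HSPA1A 2053 ± 104.3 in si-CTRL cells, and HSPA2 was last with 88.47 ± 16.85. The merged length counts exons that these cells may not use, so that the order of close neighbours is uncertain.

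All 40 genes together took 2.15 ± 0.066% of the reads in si-CTRL and 2.26 ± 0.035% in si-NEK2 cells (SD, n = 3). The 2 groups overlapped on this measure, at 2.1 to 2.23% and 2.22 to 2.29%. In normalized counts the sum went from 1411557 ± 50262 to 1620328 ± 27001 (SD, n = 3), a ratio of 1.148. This ratio includes the higher sums of normalized counts of the si-NEK2 libraries, which the share of reads leaves out.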

How the data were processed

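PolyA RNA of MDA-MB-231 cells was sequenced in 3 si-CTRL and 3 si-NEK2 libraries, grouped by the sample titles. The authors deposited a signal per gene and library, reads divided by the DESeq2 size factor, on FAST DB genes with hg19 coordinates, replicates not pooled. The submitters' processing notes name STAR 2.4.0, SAMtools, Picard, FastQC and DESeq2. The counting tool and its strand setting are not given in the sources used here. Columns were matched to samples by the source names.

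Here 100% of the values were whole multiples of 1 read (tolerance 0.01), which gave back the reads. The depth was at least 52625492 reads per library. Genes with a mean of at least 10 were tested with limma 3.58.1 (R 4.3.3, lmFit, eBayes with trend) on log2(value + 1), with Benjamini-Hochberg adjustment over 18717 genes, and fold changes of low genes are understated on this scale. Ratios of 3 pairs of genes were tested with exact permutation tests (scipy 1.17.1). The fit was tested on simulated data. The genes, lists and tests were chosen with earlier results of these data known, the background of abundant genes was added later, and lists were described without a set test. Values per library are given for regulated chaperone genes and for 14 genes chosen by role. Those of CCT5, PPID, BAG1 and HSPA6 were added after they were seen. In the 2 further lists, genes regulated at an unadjusted p of 0.05 and 1.5-fold are named. Alternatives were other pseudocounts, filters, scalings and thresholds, no trend, a replicate block, each library left out, edgeR 4.0.16 and DESeq2 1.42.0 on the recovered reads.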

Additional observations from a re-analysis of the deposited data

How the results depend on the processing

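Of 680 pairs of a chaperone gene and an alternative, 613 kept the direction and the side of an adjusted p of 0.05, 36 lost the call, 12 gained it and 19 turned the sign, and 22 of the 40 genes kept both throughout.

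With equal total scaling, which shifts the median of all genes to -0.11, the median of the chaperone genes was 0.11, 5 were regulated higher, and HSF1 (-0.05), CHORDC1 (-0.08), AHSA1 (-0.07) and HSPB1 (-0.04) turned. With upper quartile scaling the median was 0.17 and CHORDC1 (-0.02) and AHSA1 (-0.01) turned. With quantile normalization the median was 0.07, 5 were regulated higher and 4 lower, 7 fell, and HSF1 (-0.01), HSPA9 (-0.04), HSP90AB1 (-0.21), CHORDC1 (-0.04), AHSA1 (-0.07), HSPB1 (-0.02) and HSPD1 (-0.00) turned. With a fold change of at least 2, which removes genes by construction, 2 chaperone genes were regulated higher and 0 lower.

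Leaving out 1 library in turn gave from 7 to 9 chaperone genes regulated higher, from 2 to 3 lower, from 17 to 26 that rose (26 without si-CTRL replicate 1), from 4 to 5 that fell and a median from 0.23 to 0.27. The sign turned within the ranges of STIP1 (-0.10 to 0.08), FKBP4 (-0.05 to 0.01), BAG3 (-0.14 to 0.06), CHORDC1 (-0.08 to 0.21) and HSPB1 (-0.03 to 0.24). All values with a turned sign, under any alternative, had adjusted p-values above 0.05, HSP90AB1 excepted.

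Of the other chaperone genes, 1 was regulated higher and 6 lower with equal total scaling, 5 lower with upper quartile scaling and 0 higher with a fold change of at least 2, and from 2 to 3 higher and from 2 to 4 lower with 1 library left out. Of the heat shock factor targets, 5 were regulated higher (20.8%), beside 8.23% of all tested genes and 7.92% of the abundant ones. All 5 are listed chaperone genes already counted as regulated higher, so that this share is no separate excess. Of the 8 targets outside that list, 0 were regulated higher, and their median log2 FC was 0.01. The count of targets regulated higher was 3 with equal total scaling and with quantile normalization, and 1 with a fold change of at least 2. None was regulated lower, against 2 with upper quartile and equal total scaling, 1 with quantile normalization, 1 in edgeR, 1 in DESeq2 and from 0 to 2 with 1 library left out (1 without si-CTRL replicate 2 or si-NEK2 replicate 2, 2 without si-NEK2 replicate 3). The cause was not tested.

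Same-numbered libraries did not deviate together (correlations of -0.09, 0.05 and -0.15). With the replicate block 18 chaperone genes rose and 4 fell, and 8 were regulated higher and 2 lower. In this balanced design the block cannot change a fold change, so that the median of 0.24 and the ratio differences were fixed in advance. The ratio differences of the 3 pairs were 0.39, -0.35 and 1.30. These differences kept their sign throughout, from 0.37 to 0.41, from -0.40 to -0.31 and from 1.21 to 1.36 with 1 library left out.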
